A study of Mus musculus with 8 samples.

Results

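Long Pol II tracts of untreated macrophages are stretches of the genome where RNA polymerase II was listed at position after position over many kilobases. They were built from the peak list of the Pol II chromatin immunoprecipitation of untreated cells (0 h): listed positions less than 5 kb apart were chained, and chains of 10 or more positions were kept. This gave 1033 tracts out of 20187 chains and single positions. The others were 1603 chains of 5 to 9 positions, 5349 chains of 2 to 4 and 12202 single positions. The tracts held 19435 of the 55600 positions of the list (35.0%).

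The study mapped Pol II, the histone marks H3K4me3 and H3K27me3 and the H3K27 demethylase Jmjd3 by sequencing of immunoprecipitated chromatin. The cells were primary macrophages grown from bone marrow of female Fvb mice aged 6 to 8 weeks, either untreated or treated with interferon gamma (IFNγ) together with lipopolysaccharide (LPS). Pol II was mapped at 0, 2 and 4 h, both histone marks at 0 and 4 h, and Jmjd3 at 2 h only, with 1 library for each of these 8 groups. No group had a replicate, so no difference between times has a replicate check and no p-value is given. Intervals cover counting error only. All positions are on the mouse build mm8. The lists name no genes and no annotation of mm8 was used here, so tracts are identified by position, and the labelled cell type could not be checked against marker genes.

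Pol II transcribes protein-coding genes: it is loaded at a promoter, often pauses just downstream of it, and then moves through the gene body to the termination region. H3K4me3 marks active and poised promoters, whereas H3K27me3 is laid down by Polycomb complexes at repressed genes. LPS, a bacterial cell wall component, and IFNγ, a T cell cytokine, switch macrophages to an inflammatory programme, and Jmjd3 is one of the genes they induce.

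A tract had a median of 14 positions (quartiles 11 and 21, range 10 to 139) and a median length of 21.1 kb (quartiles 16.1 and 30.8, range 8.47 to 215 kb). Together the tracts covered 27.4 Mb. Density varied less than length: the median was 7.25 positions per 10 kb (quartiles 6.28 and 8.17, range 4.00 to 13.4), and the median gap between neighbouring positions in tracts was 1239 bp. The deposited value of a position is a whole-number overlap count, which serves here as its height within its own list. Long tracts were not made of tall positions. The median count inside tracts was 14 and outside 13, and the median of the tallest position of a tract was 60 (quartiles 31 and 98, range 11 to 331). These values chose the tracts or come from the same list, and are a description. At the threshold, the 138 chains of 10 positions had a median length of 13.98 kb and the 172 chains of 9 positions just outside it 12.96 kb, both with a median count of 13.

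Chromosome 11 held the most tracts, 118, with 42.7% of its 0 h positions in them, and chromosome X held 9, with 17.5%. A tract of 13.4 kb lay on the mitochondrial genome, with 12 positions at 0 h, 2 at 2 h and 3 at 4 h. A further 12 tracts were dense in H3K27me3, with at least 50% as many H3K27me3 as Pol II positions at 0 h. They held 228 of the 403 H3K27me3 positions at 0 h inside tracts and 87 of the 659 Jmjd3 positions. The most extreme spanned 3023881 to 3102270 on chromosome 11. It held 67 Pol II positions at 0 h, 65 Jmjd3 positions and 62 H3K27me3 positions at each of 0 and 4 h, so that lists of 3 antibodies named almost as many positions in the same span. These 13 tracts stand apart from the rest, and the mark results that rest on them are also given for the other 1020.

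**Figure D1:**
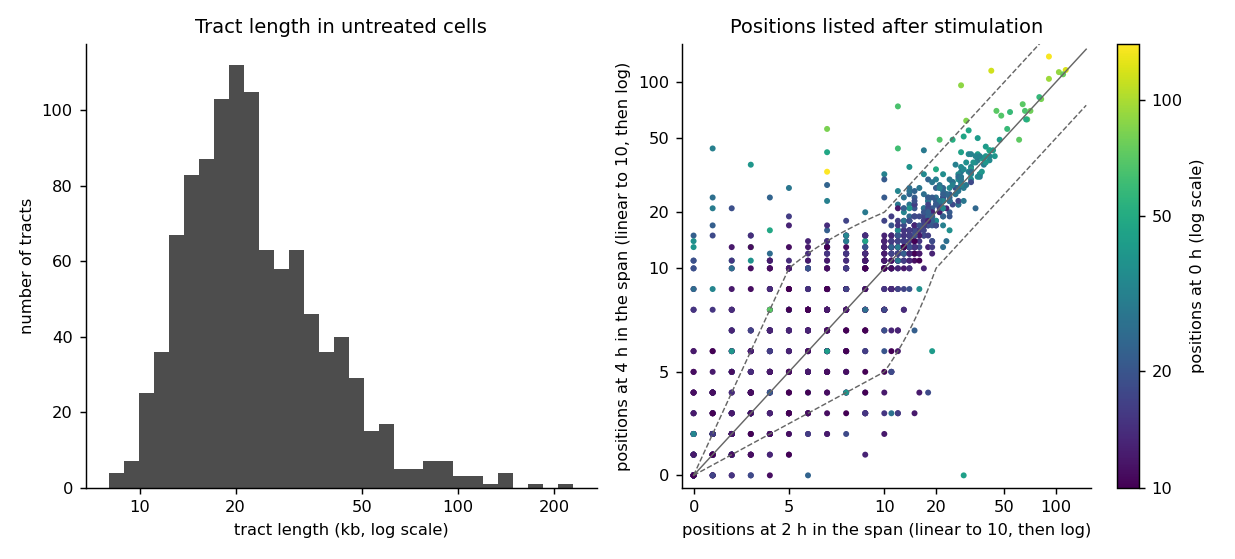
Left, number of tracts by length in kb (log axis) for the 1033 tracts. Right, each point is a tract, with its number of Pol II positions at 2 h (x axis) and 4 h (y axis); the colour gives the number at 0 h, the solid line marks equal numbers and the dashed lines a 2-fold difference. More points lie above the line of equality (593) than below it (294).

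The stimulated lists were then read inside the spans fixed at 0 h. A tract held a median of 0.6 times its 0 h number at 2 h (quartiles 0.286 and 0.833) and 0.707 times at 4 h (quartiles 0.364 and 0.933). At 2 h, 451 tracts (43.7%, exact interval 40.6 to 46.7) held 50% or fewer of their 0 h positions, against 49.9% of all chains of 5 or more positions. At 4 h, 368 did so (35.6%, 32.7 to 38.6), against 43.9% of those chains. As many positions as at 0 h, or more, were listed in 149 tracts at 2 h (14.4%, chains 15%) and in 219 at 4 h (21.2%, chains 19.8%). Both comparisons use the 0 h list that chose the tracts, and they share it, so these numbers are not read as a fall or as a return.

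The direction did turn with the list that defined the tracts. Chained the same way, the 2 h list gave 1104 tracts with 25579 positions at 2 h and 12146 at 0 h, and their median ratio of 0 h to 2 h was 0.458. The 4 h list gave 1124 tracts with 26933 positions at 4 h and 14308 at 0 h, with a median ratio of 0.574. On 7 chromosomes the 0 h list stops before the later lists do. Without tracts in those chromosome ends the median ratios were 0.472 and 0.587. With the same ends left out, positions of the 3 lists were also pooled before chaining, and chains of 30 or more were kept. The median ratio to 0 h was then 1.17 at 2 h and 1.23 at 4 h over 1114 tracts. In those pooled tracts 12.7% held 50% or fewer at 2 h and 7.99% at 4 h, and 61.7% and 68.2% held as many or more.

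The 2 and 4 h lists can be set against each other in the 0 h tracts, since the choice used neither. More positions were listed at 4 h than at 2 h in 593 tracts (57.4%, chains of 5 or more 47.3%), as many in 146 and fewer in 294. Over all tracts the total was 11467 at 2 h and 13621 at 4 h, a ratio of 1.19, whereas the 2 lists as a whole had 57200 and 57513 positions, a ratio of 1.01. A 2-fold difference was counted only where the larger number was at least 5, a floor that short chains meet less often. At least 2-fold more positions at 4 h were found in 120 tracts (11.6%, 9.73 to 13.7), against 7.93% of chains of 5 or more. At least 2-fold fewer were found in 43 (4.16%, 3.03 to 5.57), against 3.64% of those chains. The 2 shares of tracts differed by 7.45 percentage points (5.07 to 9.83). Over the 857 tracts that met the floor the share with 2-fold more was 14% (11.7 to 16.5), and over the 679 chains of 5 to 9 that met it 13.1% (10.7 to 15.9). For 2-fold fewer the shares were 5.02% (3.65 to 6.70) and 7.81% (5.90 to 10.1). Among those that met the floor the intervals of tracts and shorter chains overlap, which does not decide whether the shares differ. No interval of either difference was taken. Since short chains meet the floor less often, no difference is read from the shares of all chains. In the pooled tracts, which were chained from all 3 times, these shares were 8.08% and 6.46%, and 55.4% had more positions at 4 h.

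In total, the few tracts with most positions had more at 4 h than at 2 h by a wider margin. The 29 tracts of 50 or more positions held 1500 at 2 h and 2038 at 4 h, a ratio of 1.36, and the 525 tracts of 10 to 14 positions 3462 and 3897, a ratio of 1.13. At least 2-fold more positions at 4 h were listed in 10 of the 29 (34.5%, exact interval 17.9 to 54.3), all of which met the floor, and in 14.6% (11.3 to 18.4) of the 405 of the smaller tracts that met it. Between them, the share with 2-fold more was 9.52% for tracts of 15 to 24 positions and 16.7% for those of 25 to 49, so it did not rise steadily with size. None of the 29 had 2-fold fewer (exact interval up to 11.9%), against 5.93% of the 405 (3.83 to 8.69). For both shares the intervals of the 29 and the 405 overlap, which does not decide whether the shares differ. No interval of either difference was taken, so neither is read as a result.

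The longest tract by both measures ran over 215 kb, from 24292441 to 24507313 on chromosome 14. It had 139 Pol II positions at 0 h, 7 at 2 h and 33 at 4 h. An H3K4me3 cluster of 12737 bp with a count of 210 covered its lower end at 0 h, and Jmjd3 was listed 1.07 and 13.7 kb from that end. The positions listed at 4 h were not spread over the span: 27 of the 33 lay in the 50% nearest the H3K4me3 end, and 23 in the first 30%, whereas at 0 h 68 of 139 lay in the same 50%. The far part of this tract therefore had listed Pol II positions at 0 h and few at either later time. The median 0 h count of the tract was 11, and the lowest counts in the lists were 9, 10 and 11 at 0, 2 and 4 h. Many of its positions were thus near the listing floor, and an unlisted position does not show that Pol II was absent.

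On chromosome 10, from 110564162 to 110710765, a tract of 147 kb had 115 positions at 0 h, 42 at 2 h and 115 at 4 h. At 2 h 28 of the 42 lay in the lower 50% and 14 in the upper, and at 4 h the split was 57 and 58. Its tallest H3K4me3 cluster began 2.78 kb from the lower end with a count of 218, and 1 Jmjd3 position lay 4.50 kb from it. On chromosome 3, from 60583407 to 60726678, a tract of 143 kb followed the same course in number, with 89, 28 and 96 positions, without any Jmjd3. It held 7 H3K4me3 clusters at 0 h and 4 at 4 h. At 4 h these 2 tracts had at least as many positions as at 0 h, which the tract on chromosome 14 did not.

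Another course in number was a low value at 2 h with an intermediate one at 4 h. The tract of 111 kb from 79529829 to 79640331 on chromosome 3 had 82, 7 and 56 positions, no Jmjd3, and a single H3K4me3 cluster inside the span, 80.2 kb from the lower end, with a count of 146 at 0 h and 103 at 4 h. On chromosome 4, from 138460352 to 138572451, 112 kb held 84, 30 and 62 positions.

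Other tracts were occupied alike at all 3 times. From 44801449 to 44940268 on chromosome 2, 139 kb held 118, 114 and 116 positions, with 1 H3K4me3 cluster of 18773 bp at the higher end and 3 Jmjd3 positions. From 119206393 to 119307538 on chromosome 11, 101 kb held 81, 82 and 81 positions. The heights there did not stay alike: the median count was 14 at 0 h, 98 at 2 h and 105 at 4 h, which put the tract at percentile 49.3, 90.01 and 93.1 of its own list. The 5 Jmjd3 positions of this tract all lay within 6.21 kb of its lower end. So a tract with an unchanged number of positions could still rank much higher in the stimulated lists.

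**Figure D2:**
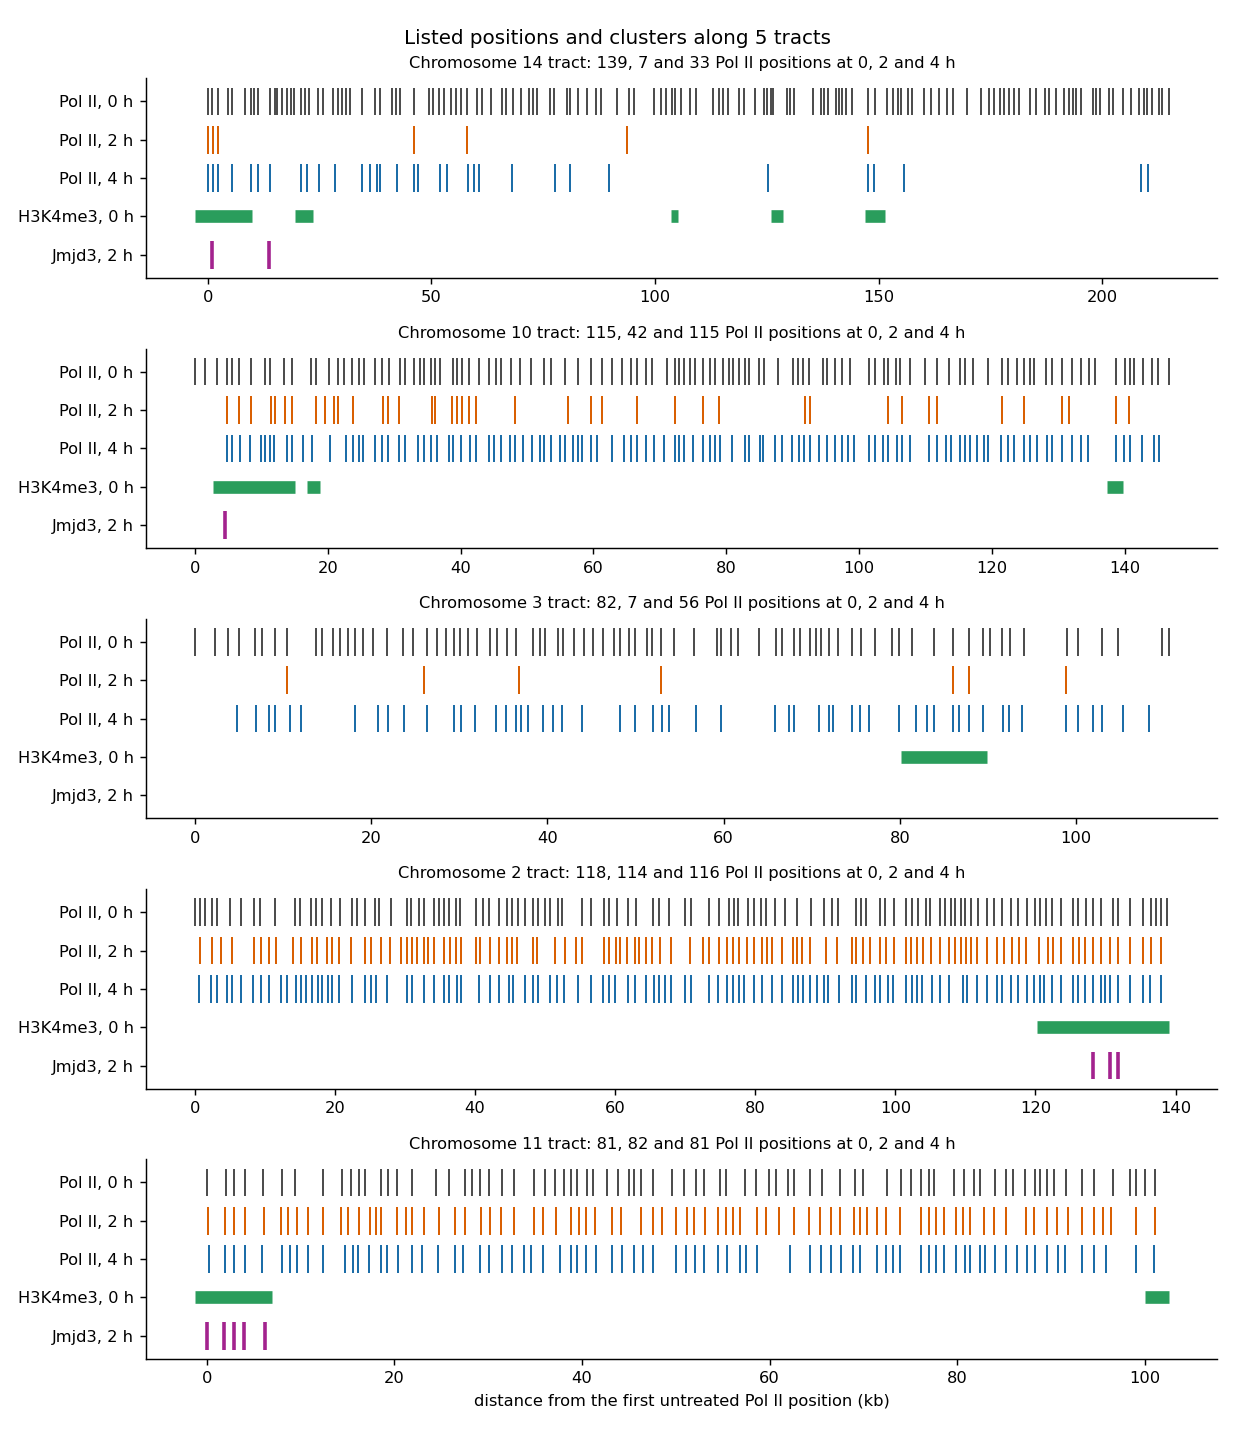
Maps of 5 tracts drawn to scale, with distance from the lower end in kb on the x axis. Ticks are listed Pol II positions at 0, 2 and 4 h, bars are H3K4me3 clusters at 0 h, and the lowest row shows Jmjd3 positions at 2 h. The tract on chromosome 14 goes from 139 to 7 and 33 positions, with most of the 33 near its lower end, while the one on chromosome 2 keeps 118, 114 and 116.

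The remaining tracts with most positions were on chromosomes 10, 11 and 1. The one from 8404189 to 8577575 on chromosome 10 had 136, 91 and 137 positions over 173 kb, and the one from 76223370 to 76363709 on chromosome 11 had 95, 91 and 104 over 140 kb. The tract of 119 kb from 62637446 to 62755979 on chromosome 1 had 91, 104 and 113, with median counts of 13, 27 and 32 and a tallest position of 75, 248 and 223. Among the 10 tracts with most positions, 4 h numbers thus ranged from 33 to 137.

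At the low extreme, 61 tracts had no Pol II position at 2 h and 37 none at 4 h. The tract from 25153911 to 25233718 on chromosome 19 had 39 positions at 0 h, 0 at 2 h and 13 at 4 h. On chromosome 9, 32210276 to 32270020 had 33, 0 and 2, and on chromosome 15, 6334096 to 6390475 had 44, 29 and 0. Low counts at 0 h did not mark all of these: the tract from 122683146 to 122726452 on chromosome 8, with 37, 0 and 14 positions, had a tallest position of 182 at 0 h. A listed number of 0 says only that no position passed the authors' threshold.

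At the high extreme, the tract from 98206153 to 98244827 on chromosome 3 had 18, 32 and 29 positions and none of the other marks in its span at any time. The tract from 72027276 to 72049034 on chromosome 6 had 12, 12 and 21, and its tallest position was 45 at 0 h, 19 at 2 h and 197 at 4 h. A dip at 2 h was seen in the tract from 116678142 to 116692626 on chromosome 10, with 11, 5 and 13 positions and no Jmjd3. Its median counts of 156, 12 and 265 stood at percentile 99.5, 21.0 and 99.6 of their own lists. The opposite order of number and height was seen from 101933588 to 101945743 on chromosome 14, where 12, 10 and 8 positions had median counts of 24.5, 373.5 and 364, with 9 Jmjd3 positions.

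The tallest 0 h position of any tract, with a count of 331, lay in the tract from 5793351 to 5851192 on chromosome 19, which had 50, 41 and 43 positions and 8 Jmjd3 positions. The densest tract, from 76239894 to 76248869 on chromosome 13, held 13.4 positions per 10 kb and had 12, 2 and 7 positions. The next densest, from 56619238 to 56628215 on the same chromosome, had 11, 0 and 1. The other 3 of the 5 densest had ratios to 0 h of 0.3 to 0.8 at 2 h and 0.5 to 0.7 at 4 h, so the densest tracts differed widely among themselves.

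The chromatin lists were not used to choose the tracts. An H3K4me3 cluster shared at least 1 bp with 792 tracts at 0 h (76.7%, exact interval 74.0 to 79.2) and with 780 at 4 h (75.5%, 72.8 to 78.1). There were at least 2 clusters in 406 tracts and at least 3 in 165, so many spans held more than one marked site. Jmjd3 was listed in 338 tracts (32.7%, 29.9 to 35.7). H3K27me3 was listed in 125 at 0 h (12.1%, 10.2 to 14.2) and in 102 at 4 h (9.87%, 8.12 to 11.9). Over the 1020 tracts the shares were 76.9% and 75.6% for H3K4me3, 32.6% for Jmjd3, and 11.1% and 8.82% for H3K27me3.

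Read from the other side, tracts took unequal shares of the lists. They held 659 of the 4398 Jmjd3 positions (14.98%, 13.9 to 16.1) and 1445 of the 21418 H3K4me3 clusters at 0 h (6.75%). They held 403 of the 59684 H3K27me3 positions at 0 h (0.675%) and 419 of the 89093 at 4 h (0.470%). Without the 13 tracts these numbers were 572 Jmjd3 positions (13.01%), 1419 H3K4me3 clusters (6.63%), 175 H3K27me3 positions at 0 h (0.293%) and 178 at 4 h (0.200%). The Jmjd3 positions in tracts were hardly taller than the others, with a median count of 11 against 10.

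Tracts held marks more often than shorter chains. The share with H3K4me3 at 0 h was 55.7% in chains of 2 to 4 positions, 60.0% in chains of 5 to 9, 69.9% in tracts of 10 to 14, 81.4% in those of 15 to 24, 85.7% in those of 25 to 49 and 96.6% in those of 50 or more. The share with Jmjd3 over the same classes was 8.26%, 16.2%, 23.8%, 38.4%, 43.5% and 72.4%. Against chains of 5 to 9, tracts were higher by 16.7 percentage points for H3K4me3 (95% interval 13.1 to 20.2) and by 16.6 for Jmjd3 (13.2 to 19.9). For H3K27me3 the difference was 3.30 points at 0 h (0.880 to 5.73) and 1.27 at 4 h (-1.01 to 3.54), the latter with an interval that includes 0. The 0 h interval also included 0 with gaps under 3 kb (2.27 points), spans widened by 2 kb (2.10) or Pol II counts of at least 11 (2.67) or above the list median (2.55). H3K27me3 positions numbered 1.47 per 100 kb in tracts and 1.69 in chains of 5 to 9, and 0.649 and 1.06 without the tracts and chains dense in H3K27me3.

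A longer span has more room for a mark, and per length the order was another. H3K4me3 clusters numbered 5.28 per 100 kb in tracts, 8.55 in chains of 5 to 9 and 21.3 in chains of 2 to 4. Jmjd3 positions numbered 2.41 per 100 kb in tracts and 2.57 in chains of 5 to 9. Over the tracts and chains that are not dense in H3K27me3 these Jmjd3 densities were 2.12 and 2.48. Tracts thus exceeded the shorter chains in the share that held a mark, and did not exceed them in marks per length.

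**Figure D3:**
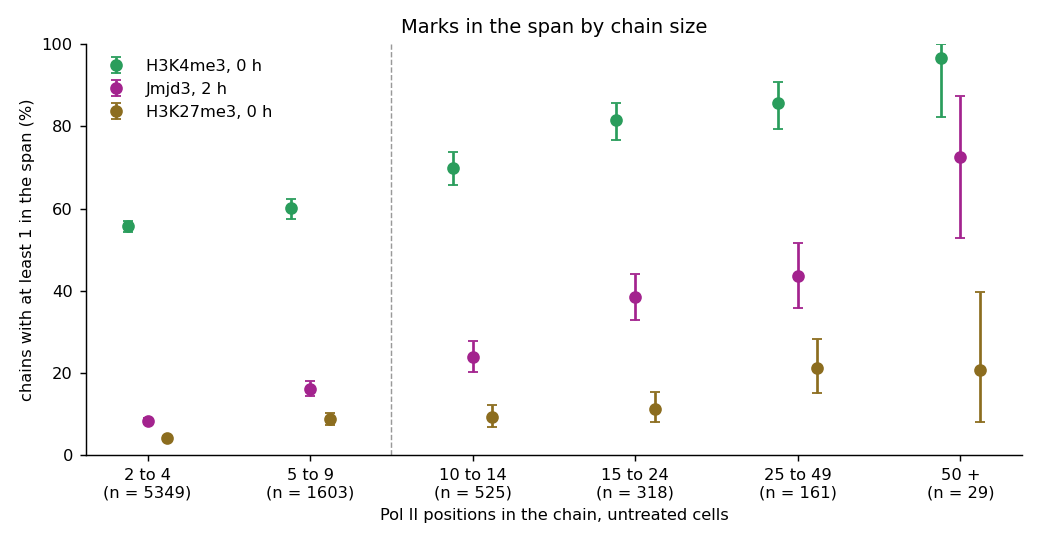
Percent of Pol II chains with at least 1 H3K4me3 cluster, Jmjd3 position or H3K27me3 position in the span, by number of 0 h Pol II positions in the chain; bars show exact 95% intervals. H3K4me3 goes from 60.0% in chains of 5 to 9 positions to 96.6% in tracts of 50 or more, and Jmjd3 from 16.2% to 72.4%.

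H3K4me3 lay near at least 1 end of most tracts. How often clusters would reach an end by their width alone was not tested. A cluster at 0 h was found within 2 kb of 1 end only in 500 tracts (48.4%, 45.3 to 51.5), of both ends in 184 (17.8%) and of neither in 349 (33.8%). Of the 500, the marked end was the one with the higher coordinate in 259. With the 13 tracts left out, 496 with 1 marked end could be read from that end, as a stand-in for a direction that the lists do not give.

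Pol II height followed the marked end. The tallest 0 h position lay in the 50% of the span next to the H3K4me3 end in 437 of 496 tracts (88.1%, 84.9 to 90.8), and in the 10% next to it in 301 (60.7%). At 2 h the share in the marked 50% was 75.3% of 481 tracts with a position, and at 4 h 77.8% of 486. The median count in the 10% next to the marked end was 25 at 0 h and 42 at both 2 and 4 h, and in the 10% at the far end 12, 16 and 21. Numbers of positions followed it little: the marked 50% held 49.97% of 9707 positions at 0 h (48.97 to 50.97), 51.7% of 6135 at 2 h (50.4 to 52.9) and 50.8% of 7033 at 4 h (49.6 to 51.9). These intervals treat positions of the same tract as independent, which makes them too narrow, so no excess at 2 h is read from them.

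Along the span, the number at 4 h exceeded that at 2 h most at the far end. In the 10% next to the marked end the lists had 622 positions at 2 h and 709 at 4 h, a ratio of 1.14, and in the far 10% 453 and 612, a ratio of 1.35. Between them the ratio ran from 1.07 to 1.22. These ratios pool positions over tracts, have no interval and are a description. Median counts in the far 10% were 16 at 2 h and 21 at 4 h, where the lowest listed counts were 10 and 11. The first and last 10% hold an end position at 0 h by the way tracts are built, so ratios to 0 h there are not compared. In the 76 tracts of 40 kb or more with 1 marked end, the first 10 kb held 561, 355 and 419 positions at 0, 2 and 4 h and the stretch from 30 to 40 kb held 547, 406 and 453, with median counts of 21, 24 and 27 against 15, 19 and 25.

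Jmjd3 sat with H3K4me3. In the 496 tracts, 281 of 347 Jmjd3 positions (81.0%, 76.4 to 85.0) lay in the marked 50% and 150 (43.2%) in the marked 10%. For H3K4me3 itself, which set the direction, 79.8% of 721 clusters lay in the marked 50%. In the long tracts the numbers of Jmjd3 positions in successive stretches of 10 kb from the marked end were 38, 17, 7 and 10.

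**Figure D4:**
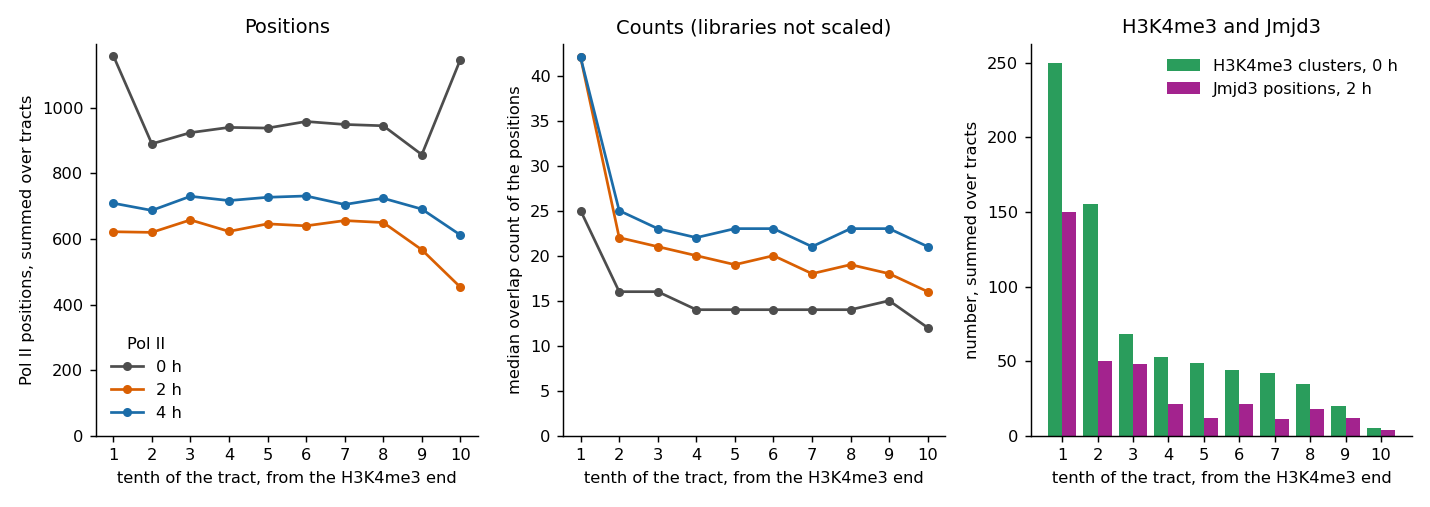
Profile along 496 tracts with 1 H3K4me3-marked end, in steps of 10% of the span counted from that end. The panels give the number of Pol II positions at 0, 2 and 4 h, the median Pol II count, and the numbers of H3K4me3 clusters and Jmjd3 positions; median counts drop from 25 to 12 at 0 h and from 42 to 16 at 2 h between the first and last step, and 150 of 347 Jmjd3 positions are in the first.

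H3K4me3 clusters in tracts were wide. Their median width was 4737 bp and their median count 161. Clusters outside tracts that shared at least 1 bp with a 0 h Pol II position had almost the same median count, 163, and a median width of 3333 bp, and all clusters outside tracts had 73 and 2735 bp. A wide cluster also meets a span more readily than a narrow one, which was not separated here. Within tracts, the 865 clusters near an end had a median count of 188 and a width of 5219 bp, and the 580 in the interior 67 and 3873.5 bp.

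Some clusters present at 0 h had no overlapping cluster in the 4 h list. This was so for 143 of 1445 in tracts (9.90%), for 4.74% of those near an end and 17.6% of those in the interior, and for 13.4% of the 19973 outside. Almost all were low: among clusters of the lowest quartile by height, with counts up to 21, 46.0% of 298 in tracts and 48.1% of 5197 outside were absent at 4 h, a difference of -2.15 points (-7.97 to 3.67). Of the 1147 taller clusters in tracts, 6 were absent. At like height, loss in tracts and outside could not be told apart at this depth. In tracts with 50% or fewer Pol II positions at 2 h, 51.8% of low clusters were absent, against 41.0% in the other tracts, a difference of 10.8 points whose interval includes 0 (-0.470 to 22.1).

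Tracts grouped by their Pol II number at 2 h differed in Jmjd3. Of the 448 tracts (out of 1020) with 50% or fewer of their Pol II positions at 2 h, 70 held Jmjd3 (15.6%, 12.4 to 19.3). Of the other 572, 263 did (46.0%, 41.8 to 50.2), and the difference was -30.4 percentage points (-35.6 to -25.1). With all 1033 tracts it was -30.5. Grouped by the 4 h number instead, the shares were 14.8% of 365 and 42.6% of 655, a difference of -27.8 points (-33.1 to -22.5). This comparison was chosen after the values had been seen. Its groups use the 0 h number that chose the tracts. Pol II height at 2 h, the time of the Jmjd3 library, was not held alike between them.

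Height and H3K4me3 moved with these groups. The median of the tallest 0 h count was 49 in tracts with 50% or fewer positions at 2 h, 72.5 in those above 50% but below their 0 h number and 60 in those with as many or more. H3K4me3 at 0 h was in 70.3% of the first group and 82.0% of the others (difference -11.7 points, -17.0 to -6.41). The Jmjd3 difference was therefore also taken within classes. For tracts whose tallest 0 h count was 11 to 39, the shares were 3.68% of 190 and 9.21% of 152. For 40 to 84 they were 16.9% of 148 and 49.2% of 195, and for 85 to 331 they were 34.5% of 110 and 68.0% of 225 (difference -33.5 points, -44.2 to -22.7). Within tracts that held H3K4me3 the shares were 21.6% of 315 and 55.9% of 469. Without H3K4me3, Jmjd3 was listed in 2 of 133 and 1 of 103 tracts.

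By size the difference was -23.9 points for 10 to 14 positions, -34.3 for 15 to 24, -34.2 for 25 to 49 and -57.8 for 50 or more, the last from 11 and 17 tracts. Tracts with at least 2-fold more positions at 4 h than at 2 h held Jmjd3 less often than the others, 16.7% against 34.8% (difference -18.1 points, -25.5 to -10.8). Of these 120 tracts, 119 also had 50% or fewer of their 0 h positions at 2 h. This comparison thus largely repeats the split by 2 h number and is not a separate result. The 43 with at least 2-fold fewer also held it seldom, in 13.95% (5.30 to 27.9). H3K27me3 at 0 h showed no such difference between tracts with 50% or fewer positions at 2 h and the others (0.943 points, -2.96 to 4.84). Jmjd3 itself was mapped at 2 h only, so its presence at 0 or 4 h in these spans was not analysed here.

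**Figure D5:**
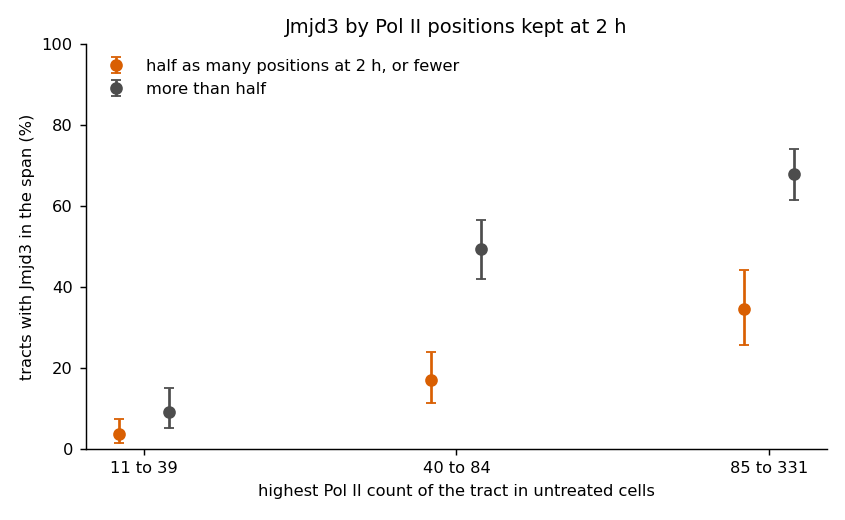
Percent of tracts with Jmjd3 in the span, for tracts with 50% or fewer of their 0 h Pol II positions at 2 h and for the other tracts, in 3 classes of the tallest 0 h count; bars show exact 95% intervals. The share is lower in the first group in each class, 34.5% against 68.0% in the tallest.

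A set of 232 tracts had no H3K4me3 cluster at 0 h in the span or within 2 kb of it. The nearest cluster lay a median of 17.0 kb away (quartiles 8.70 and 30.8 kb, for 231 tracts with one on the chromosome), and within 10 kb for 73. These tracts were low: the median of their tallest count was 23, against 75 in the other tracts. They held 3575 positions at 0 h, 1757 at 2 h and 2233 at 4 h, with median ratios to 0 h of 0.435 and 0.563. H3K4me3 was listed in the span of 6 of them at 4 h and Jmjd3 in 4.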

How the data were processed

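The authors deposited 1 peak list per library, on mm8 per the submitters' processing notes. Per the file headers each peak carries an overlap count, a signal not stated to be scaled to depth or to a control. H3K4me3 peaks have a start and an end, whereas those of the other antibodies are 1 bp. The sources used here do not give the aligner, peak caller or thresholds. The lowest Pol II counts were 9, 10 and 11 at 0, 2 and 4 h. Depth was over 10000000 uniquely mapped tags per library, per the labels, and is otherwise unknown, so counts were compared or ranked only within a list and counts of different times are given side by side.

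Tracts were chains of 10 or more 0 h positions with gaps under 5000 bp (Python 3.11.15, pandas 2.3.3). Entries of the other lists were counted when they shared 1 bp with a span. Shares have exact Clopper-Pearson intervals and differences Wald intervals, both at 95%, and cover counting error only. Intervals over positions or clusters treat those of the same tract as independent. On simulated data 3000 of 3000 planted chains were recovered, and span counts were the same as those of bedtools 2.31.1 for 8 of 8 lists.

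Members, lists and comparisons were chosen with earlier results of these data known. Tracts named are from the top of these orders: most positions, longest, densest, tallest, lowest and highest ratio to 0 h at 2 and 4 h, most Jmjd3 and most H3K27me3. Gene tables at hand are on another build and were not used. Alternatives varied the gap, the smallest number of positions, the counts used, the span, the end zone, the chromosomes and the list that defined the tracts.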

Additional observations from a re-analysis of the deposited data

How the results depend on the processing

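Over 20 alternative settings and 15 results, 115 of 152 values were counted as unchanged. Shares, medians and numbers counted so stayed within the interval, spread or range set by the reported value. For tract number and length these bounds were wide, and values counted as unchanged still varied, as given below. Differences counted so kept their side of 0, with an interval that left out 0, whatever their size. Across settings, the share with 2-fold more at 4 h minus that with fewer ranged from 5.03 to 16.1 points (reported interval 5.07 to 9.83). The Jmjd3 difference by 2 h number ranged from -48.0 to -24.9 (-35.8 to -25.3). The excess over shorter chains ranged from 13.1 to 25.8 for Jmjd3 (13.2 to 19.9) and 13.3 to 23.6 for H3K4me3 (13.1 to 20.2). No paired analysis was possible because each group has 1 library and the labels carry no replicate numbers. The ratio to 0 h reversed with the defining list: its median was 1.91 at 2 h in tracts from the 2 h list and 1.58 at 4 h in tracts from the 4 h list. These ratios leave out tracts with no 0 h position. Leaving out the chromosome ends where the 0 h list stops early therefore could not change them. The inverse ratios, of 0 h to the later time, keep such tracts, and without those ends their medians were 0.472 and 0.587. In pooled tracts the median ratios to 0 h were 1.17 and 1.23. The cause was not tested.

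The number of tracts was 508 with 15 or more positions, 624 with Pol II counts of 11 or more and 254 with counts above each list's median. Counted as unchanged were 805 with gaps under 3 kb, 1273 under 10 kb and 1426 with 8 or more positions. So were median lengths of 16.5 kb with gaps under 3 kb and 17.7 kb with 8 or more positions. Those of 31.3 kb with gaps under 10 kb and 31.0 kb with 15 or more positions were too, though above the reported upper quartile of 30.8 kb. The share with 50% or fewer positions at 2 h was 38.6% with counts of 11 or more, 50% with counts above the median and 39.7% with spans widened by 2 kb. The share with H3K4me3 was 68.8% with gaps under 3 kb, 86.1% under 10 kb, 73.4% with 8 or more positions, 83.7% with 15 or more, 80.4% and 86.6% with the higher Pol II counts, and 68.2% with marks above their median. In the same order, Jmjd3 was in 29.6%, 38.8%, 29.2%, 41.9%, 38.3%, 49.2% and 20.04%. H3K27me3 was in 10.1% under 3 kb, 17.0% under 10 kb, 14.96% with 15 or more positions, 15.2% with widened spans and 6.97% above the median. The excess of H3K27me3 over chains of 5 to 9 positions had an interval that included 0 with gaps under 3 kb (2.27 points), counts of 11 or more (2.67), counts above the median (2.55) and widened spans (2.10). The tallest position lay in the marked 50% in 81.8% under 10 kb, and 57.1% of tracts had 1 marked end with counts above the median. The alternatives for Jmjd3 by Pol II number at 2 h, and those that left out the 13 tracts, shortened the later lists or changed the floor of the 2-fold comparison, were chosen after seeing the data.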

Other observations

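Of the tracts with 50% or fewer positions at 2 h, 119 had at least 2-fold more at 4 h, with 2856, 533 and 1909 positions at 0, 2 and 4 h. In 35 of them the 4 h number was at least 90% of the 0 h number, with 798, 236 and 851 positions. These totals are a description, since they chose the tracts. In the 45 such tracts with 1 marked end, the 40% of the span next to it held 40.4% of 1053 positions at 0 h, 42.1% of 216 at 2 h and 43.5% of 637 at 4 h (39.6 to 47.4), so the 4 h interval includes the 0 h share. The tract of 215 kb on chromosome 14 is one of the 45.

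Among the tracts dense in H3K27me3, neighbouring spans were found on chromosome 8. Those from 19679754 to 19736844 and from 19743678 to 19793069 held 40, 44 and 40 and 34, 35 and 31 Pol II positions at 0, 2 and 4 h. H3K27me3 was listed 33 and 38 times in the first at 0 and 4 h, and 32 and 30 times in the second. On chromosome 9, the span from 3000230 to 3038198 held 28, 28 and 30 Pol II positions and 28 H3K27me3 positions at each time, with no H3K4me3 and no Jmjd3.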
